A study of Mus musculus with 58 samples.

Results

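The genes described here are *App*, the amyloid precursor, and the enzymes that cut its protein product, 9 of the 31246 genes listed. They were chosen by name, as the precursor, the β-secretases *Bace1* and *Bace2*, the α-secretase *Adam10*, and 5 genes for subunits of γ-secretase, *Psen2*, *Psenen*, *Aph1a*, *Aph1b* and *Ncstn*. RNA-sequencing covered 2 brain areas, entorhinal cortex (EC) and primary visual cortex (PVC), of male *APOE* targeted replacement mice of the C57Bl/6 strain, aged 14 to 15 months. These mice carry human *APOE* at the mouse locus under the mouse promoter, the study drew its mice from more than 1 colony, and *App* and the secretases are the mouse genes. There were 10 *APOE3/3* and 19 *APOE3/4* mice, and the same 29 animal numbers appear in both regions, giving 58 libraries. The value used for each gene was its mean normalized count over the 29 libraries of a region, both genotypes together. With 1 such mean per gene and region there was no spread between mice, so no difference was tested, and *APOE3/4* and *APOE3/3* mice were not compared here. In bulk tissue, fewer cells of a type and less RNA per cell cannot be told apart.

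APP is a membrane protein abundant in neurons. When α-secretase cuts it inside the amyloid-β segment no amyloid-β is formed, whereas a cut by β-secretase at the start of that segment followed by γ-secretase, which cuts within the membrane, releases amyloid-β. The γ-secretase complex joins a catalytic presenilin to nicastrin, PEN-2 and an APH-1 protein, and it also cuts Notch and many other membrane proteins.

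The coding sequence of the sites at which these proteins meet is shown first, since the genes below are compared as the parts of 1 cutting reaction. In *App* (NCBIM37, minus strand) the 42 residues of amyloid-β, 672 to 713 of the longest annotated product, are encoded across exons 16 and 17. The 144 bases printed add 3 codons on either side, and they lie at chr16:84965915-84965974 in exon 16 and chr16:84963030-84963113 in exon 17. The coordinates of the other lines likewise cover all the bases printed, flanking codons included. In the line for *App*, the capitals mark the pair of codons on either side of the β-cut, the α-cut and the γ-cut that ends the longer amyloid-β, in that order. In the lines for the enzymes they mark the codons of a residue motif of the active site, namely the first catalytic aspartate of *Bace1* (chr9:45660977-45661012, exon 2) and of *Bace2* (chr16:97621247-97621282, exon 2), the zinc-binding site of *Adam10* (chr9:70602100-70602132 in exon 9 and chr9:70609390-70609395 in exon 10) and an aspartate motif of the presenilin *Psen2* (chr1:182159055-182159090, minus strand, exon 10).
App: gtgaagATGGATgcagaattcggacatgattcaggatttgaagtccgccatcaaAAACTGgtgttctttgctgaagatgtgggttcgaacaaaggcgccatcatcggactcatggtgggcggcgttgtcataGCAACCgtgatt
Bace1: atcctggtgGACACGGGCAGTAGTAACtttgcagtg
Bace2: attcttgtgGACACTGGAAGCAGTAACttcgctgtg
Adam10: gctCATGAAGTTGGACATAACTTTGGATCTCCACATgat
Psen2: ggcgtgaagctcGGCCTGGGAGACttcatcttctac

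*App* was far above every enzyme gene in both regions. Its mean normalized count was 89438 in the EC, where 18 genes were listed higher, and 48475 in the PVC. Levels of different genes were compared per length, as mean count per kilobase of exon for every 1000000 counts of the region's sum. On this scale *App* stood at 539 in the EC against 533 in the PVC, above 99.9% of the genes with a length and a count above 0 in either region. Its relatives *Aplp1* and *Aplp2*, which encode the APP-like proteins, reached 482 and 158 in the EC and 442 and 172 in the PVC.

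Per kilobase of exon, the β-secretase *Bace1*, the α-secretase *Adam10* and the γ-secretase subunit *Ncstn* (nicastrin) lay close together, with *Aph1a* next below *Ncstn*. On the same per-length scale *Bace1* stood at 22.2 in the EC against 20.2 in the PVC, and *Adam10* at 21.1 and 19.1. With coding length, *Psenen*, *Aph1a* and *Aph1b* came between *Bace1* and *Adam10* in the EC, so the closeness holds for exon length. By exon length *Adam10* was 0.954 times *Bace1* in the EC and 0.949 times in the PVC, and by counts 0.741 and 0.737 times. The enzymes that make the opposing first cuts thus held nearly 1 ratio in both regions, though its size depends on the length used. *App* exceeded *Bace1* by 24.3-fold per length in the EC and by 26.4-fold in the PVC. *Bace2*, the paralog of *Bace1*, was the lowest gene of the group, at 1.04 in the EC against 0.764 in the PVC, from mean counts of 192 and 77.2. *Bace1* was above *Bace2* by 21.3-fold in the EC against by 26.4-fold in the PVC.

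The γ-secretase subunits, which assemble into 1 complex, differed in RNA level. *Psenen*, which encodes PEN-2, had the highest level per length of the enzyme genes, 35.3 in the EC against 39.2 in the PVC, although its mean counts were 1130 and 687 over 648 bases of exon. *Ncstn* stood at 18.1 and 17.7, and *Aph1a* at 15.3 and 17.01. Below them were *Aph1b*, at 7.89 in the EC against 5.53 in the PVC, and *Psen2*, at 4.73 and 4.18. The order of the 9 genes from *App* through *Psenen*, *Bace1*, *Adam10*, *Ncstn*, *Aph1a*, *Aph1b* and *Psen2* to *Bace2* was the same in the EC and the PVC on this length. Some neighbours in this order were close. *Bace1* was above *Adam10* by 1.05-fold in both regions and *Ncstn* above *Aph1a* by 1.18-fold in the EC against 1.04-fold in the PVC. Whether these steps exceed the spread between mice was not tested. The order also depended on the length used, and with coding length the EC order became *App*, *Bace1*, *Psenen*, *Aph1a*, *Aph1b*, *Adam10*, *Ncstn*, *Psen2* and *Bace2*. In the PVC *Adam10* then stood above *Aph1b*, so the regions no longer shared 1 order.

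**Figure D1:**
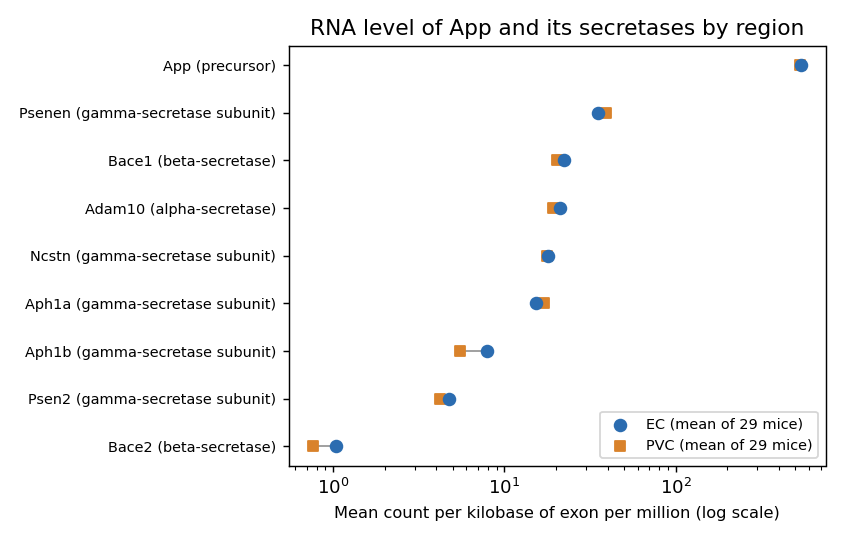
Level of each gene in the EC (circles) and the PVC (squares), as mean normalized count per kilobase of exon for every 1000000 counts of the region's sum, on a log axis; each point is 1 mean over 29 mice, with no error available. *App* stands at 539 and 533, the enzymes lie between 0.764 and 39.2, and the points of the regions lie farthest apart for *Aph1b* and *Bace2*.

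The regions were compared next, to ask whether an area that is affected early in Alzheimer's disease differs in these transcripts from one that is relatively spared. The tables of the regions were normalized separately, and the median gene had a mean count 1.86-fold higher in the EC, a log2 shift of 0.89 that was taken off every gene. None of the 9 genes then differed by 1.5-fold or more in either direction. Of all 15642 genes with a mean of at least 10 in both regions, 6.78% were higher in the EC by that much and 5.38% were lower. The median log2 difference of the 9 genes, EC minus PVC, was 0.11, with 6 values above 0 and 3 below, where the median over all genes is 0 by construction.

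*App* itself had a log2 difference of −0.01 and *Ncstn* one of 0.00, both in the middle of all genes. The first-cut enzymes stood slightly higher in the EC, *Bace1* by 0.11 and *Adam10* by 0.12, at the 69.0th and 70.1th percentile of all differences. *Psen2*, a catalytic subunit, had a difference of 0.15. *Psenen* and *Aph1a* stood slightly lower in the EC, at −0.18 each, near the 21st percentile. The middle 50% of all genes ran from −0.14 to 0.16, so *App*, *Ncstn*, *Bace1*, *Adam10* and *Psen2* lay within it and *Psenen* and *Aph1a* just outside.

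*Aph1b* and *Bace2* had the largest differences of the group. The mean count of *Aph1b* was 2011 in the EC against 773 in the PVC, a centred log2 difference of 0.49 or 1.40-fold, at the 91.2th percentile of all genes. For *Bace2* the centred log2 difference was 0.42, 1.34-fold, at the 89.4th percentile. About 1 gene in 10 thus lay as far toward the EC, and with no value per mouse neither difference could be set against replicate error. All 5 oligodendrocyte markers were lower in the EC, with log2 differences from −1.58 to −0.99, and all 5 meningeal markers were higher, from 0.65 to 3.07. The summed mean counts of the oligodendrocyte markers were 42754 in the EC against 58756 in the PVC, and those of the meningeal markers 7628 against 1074, and none of these genes was at 0 in either region. Of the 4 astrocyte markers, 3 were higher in the EC, with *Gfap* at 0.62, *Aqp4* at 0.54 and *Slc1a3* at 0.19, and *Aldh1l1* was lower, at −0.35. The part of these cell types in the differences of *Aph1b* and *Bace2* was not tested.

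**Figure D2:**
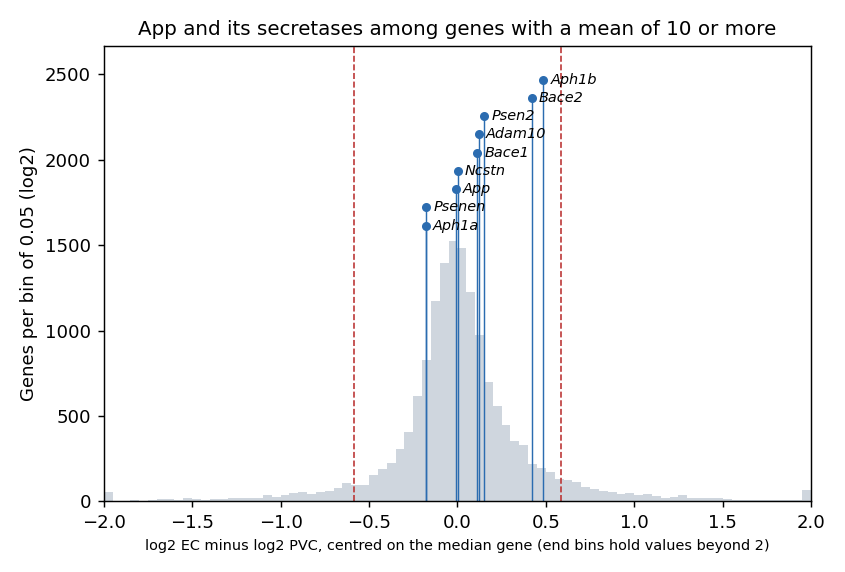
Histogram of log2 EC minus log2 PVC, centred on the median gene, for 15642 genes (bars, in bins of 0.05, with values beyond 2 in the end bins), with the 9 genes drawn as labelled lines whose heights have no meaning. All 9 lie inside the dashed lines at 1.5-fold, with *Aph1b* at 0.49 and *Bace2* at 0.42 on the EC side.

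The APH-1 subunits, of which a γ-secretase complex holds 1, were also compared by their ratio within a region. This ratio does not depend on the scaling between the tables. For every count of *Aph1a* the EC had 0.930 counts of *Aph1b* and the PVC 0.587, a 1.58-fold difference in the ratio. *Aph1a* and *Aph1b* had the lowest and the highest centred difference of the 9 genes, −0.18 and 0.49, so no other pair of them differed more. The share of all gene pairs that differ by as much was not computed, and the 1.5-fold limit applies to single genes. Per length, *Aph1a* exceeded *Aph1b* by 1.94-fold in the EC against by 3.07-fold in the PVC. Of the other ratios computed, that of *App* to *Ncstn* was nearly equal in the regions, 25.2 and 25.4 counts of *App* per count of *Ncstn*, and that of *Psenen* to *Psen2* was 1.26 in the EC against 1.59 in the PVC.

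In the mouse, *Aph1b* has a near copy, *Aph1c*, which lies 19503 bases away on the same strand of chromosome 9 and was counted as a gene of its own. *Aph1b* lies at chr9:66623009-66643297 and *Aph1c* at chr9:66662801-66682533 (NCBIM37, minus strand). Their coding sequences were 96.3% identical over 774 aligned bases, with an identical run of 341 bases, while *Aph1a* and *Aph1b* were 63.3% identical. Without the stop codon, coding sequence makes up 771 of the 5163 exonic bases of *Aph1b*. As an example of differences that let a read be assigned, the 60 coding bases in which the copies differ most are shown. These are positions 5 to 64 of each coding sequence, with the 11 differing bases in capitals (*Aph1b* at chr9:66643109-66643168 and *Aph1c* at chr9:66682342-66682401).
Aph1b: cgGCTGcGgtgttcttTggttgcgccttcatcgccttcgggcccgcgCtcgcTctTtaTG
Aph1c: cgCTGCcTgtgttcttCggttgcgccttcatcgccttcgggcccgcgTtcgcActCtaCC

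Of all 149-base windows in the *Aph1b* transcripts, the length of a read, 4.33% occurred exactly in *Aph1c*, and 15.4% did with up to 2 mismatches. The separate values of the copies are uncertain where a read matches both. *Aph1c* had mean counts of 647 in the EC against 342 in the PVC and a centred log2 difference of 0.03. Of the counts of both copies, *Aph1b* made up 75.7% in the EC and 69.3% in the other region. The sum of the copies, which is free of how reads were divided between them but not of reads left out, differed by 0.36 on the log2 scale, at the 87.2th percentile of all genes. The summed counts were 1.23 times those of *Aph1a* in the EC and 0.847 times in the PVC.

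The values of other genes of the group also depend on how reads were assigned. Exons of *Bace1* (chr9:45646663-45672482) overlap those of the opposite-strand gene *Rnf214* over 1434 bases, 22.6% of its exonic length, and those of *Aph1a* (chr3:95697892-95702211) overlap *Car14* over 445 bases, or 15.5%. For *Ncstn* (chr1:173996144-174012926) the overlap with *Copa* was 195 bases, or 4.91%. The libraries did not keep strand, so reads from such stretches cannot be told apart by strand. How these reads were counted depends on the strand setting of the counting, which is not given in the sources used here. No 149-base window of *App*, *Bace2*, *Psen2*, *Psenen* or *Adam10* occurred exactly in a protein-coding transcript of another gene. *Psenen* (chr7:31346887-31348203) lies on the chromosome of *Apoe*, the replaced gene, 11.1 Mb from it.

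Beyond the precursor and its secretases, 41 genes tied to APP, its secretases or amyloid-β were looked up, 9 of them other substrates of the secretases. The substrate *Sez6* was the 1 gene of the 41 that differed by 1.5-fold or more between the regions. This was 2.44% of the 41, where 6.78% were higher and 5.38% lower in the EC among all genes with a mean of at least 10. All 41 had means of 178 or more in both regions. Among all genes with a mean of at least 100 the shares were 4.03% and 4.32%, and 2 of the 41 were then past the limit. Counts this small do not rank the 41 against all genes. *Sez6*, a neuronal membrane protein cut by BACE1, had mean counts of 16100 in the EC against 5314 in the PVC and a centred log2 difference of 0.71. The median of the 41 genes was 0.03. By construction, 7821 of the 15642 genes with a mean of at least 10 lay on each side of 0. Of the 8 other substrates of the secretases 6 lay on the EC side, and the median of the 8 was 0.23. Those on the EC side included the cell adhesion genes *Cdh2* at 0.58 and *Chl1* at 0.50 and the receptor *Notch2* at 0.53. The 2 on the PVC side were the sodium channel subunit *Scn2b* at −0.12 and the growth factor *Nrg1* at −0.22. In the EC the levels per length of the 8 substrates ran from 65.8 for *Scn2b* to 2.19 for *Nrg1*. The 7 adaptors that bind the tail of APP lay on the PVC side, from −0.18 for *Apbb1* to −0.01 for *Apba1*, but with the tables scaled to summed counts or to the upper quartile *Apba1* stood at 0.01 and 6 of the 7 were on that side. In the EC *Apbb1*, at 161, had the highest level of the adaptors per length and *Apbb2*, at 5.15, the lowest.

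Genes listed for the sorting of APP or BACE1 had a median difference of −0.02 over 11 genes. They ran from −0.32 for *Sorl1*, a sorting receptor for APP, to 0.21 for *Vps35*, a retromer subunit. Of these, *Rtn3* had the highest EC level per length, 261, and *Gga2* the lowest, 4.38. The 5 modulators, led in level by *Itm2b* at 336, all lay on the EC side with a median of 0.17, and the lowest of them, *Pion*, the gene of γ-secretase activating protein, was at 2.31. The enzymes that degrade amyloid-β had a median of 0.07 and divided evenly, with *Ece2* at 0.41 and the neprilysin gene *Mme* at 0.26 on the EC side and *Ece1* at −0.27 and *Ide* at −0.12 on the PVC side. *Ece1*, at 11.3, had the highest EC level per length of the 4 and *Mme*, at 2.12, the lowest. Of the other α-secretases, *Adam17* had a difference of 0.02 and *Adam9* one of −0.35, and their EC levels per length were 2.72 and 14.6.

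**Figure D3:**
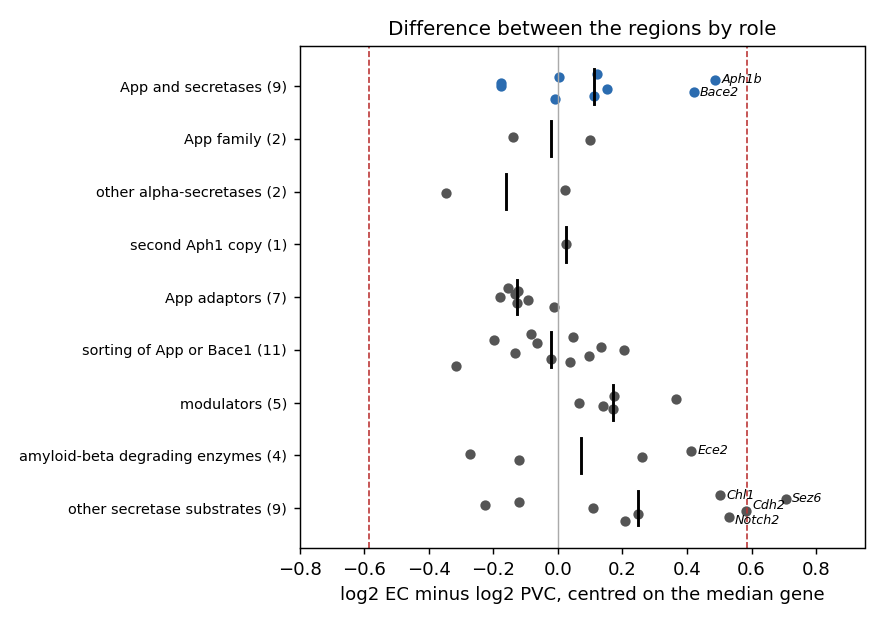
Centred log2 EC minus log2 PVC of *App* and its secretases and of 41 other genes tied to APP, its secretases or amyloid-β, by role. The number of genes is in brackets, each point is 1 gene and the black bar is the median of the role. *Sez6*, at 0.71, is the gene beyond the dashed line at 1.5-fold, and the 7 adaptors lie on the PVC side, 6 of them also when the tables are scaled to summed counts or to the upper quartile.

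The labels of the tissue were checked against marker genes. The markers of layer 2 of the EC were all higher in the EC, *Reln* by 1.74, *Wfs1* by 1.03 and *Calb1* by 0.67 on the centred log2 scale, and those of layer 4 of sensory cortex were lower, *Rorb* at −1.22 and *Scnn1a* at −0.36. Of the 5 neuronal markers 4 are listed. *Snap25* at −0.55, *Gad1* at −0.32 and *Syt1* at −0.24 were lower in the EC, and *Slc17a7* at 0.14 was higher. The 4 microglial markers ran from 0.02 to 0.15 and the 4 endothelial markers from −0.01 to 0.04. The 5 choroid plexus markers were low but present, with summed mean counts of 572 in the EC against 546 in the PVC, and went different ways. *Ttr* stood at −2.18, *Kcnj13* at 1.45, and *Kl* and *Clic6* at 0.02 and 0.00, while *Folr1* was under the minimum mean. Of the 4 dentate gyrus markers, with summed mean counts of 798 and 332, *C1ql2* stood at 1.79 and *Prox1* at −0.25. *Dsp* and *Tdo2* were under the minimum in the PVC, with mean counts of 9.69 and 9.58 there against 35.7 and 28.3 in the EC. The row named *Apoe* had mean counts of 636 and 344, from reads aligned to the mouse genome, and does not check the human gene. The mean counts summed to 1.83-fold more in the EC than in the PVC, and the depth of single libraries is unknown.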

How the data were processed

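RNA from 58 libraries, 29 per region, was analysed from 1 table per region. The authors aligned 149-base single-end reads to mm9 (NCBIM37) with TopHat2 2.0.6 and Bowtie2 2.0.2.0, counted them per gene with HTSeq and an Ensembl annotation of that build, and normalized them within each region with DESeq2 1.10.1, as the methods and the submitters' processing notes state. The TruSeq v2 kit does not keep strand. The deposited mean normalized count, treated as a signal, was computed by the authors, who divided counts by size factors and averaged them over a region's libraries. The other columns, the authors' genotype comparison (fold changes, standard errors, Wald statistics and *p*-values), were not used. Samples were grouped by region from their titles. The labels say that 7 libraries were run several times for depth, and depth per library and counting error could not be computed.

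Levels were divided by the region's sum and by the union of exons in the GENCODE vM1 annotation of NCBIM37, a later release than the one used for counting, which gave a length to 81.2% of the genes. Regional differences were centred on the median over genes with a mean of at least 10 in both regions. The procedure was run on simulated means with a known shift, which had less spread between the regions than these data. That run checks the calculation and not the differences reported here. A fold of 1.5 is a size, not a test. Coding sequences came from the GENCODE protein-coding transcripts and were aligned with Biopython 1.88. The tools were matplotlib 3.10.9, scipy 1.17.1, pandas 2.3.3 and numpy 2.4.6 under Python 3.11.15. All 9 genes and the 41 others were named by fixed lists, and of the latter the text names those past 1.5-fold, the highest and lowest level of each role, and further genes chosen after their values were seen. The genes and lists were chosen with earlier results of these data known. Other scalings, minimum counts, folds and lengths were tried.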

Additional observations from a re-analysis of the deposited data

How the results depend on the processing

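None of the 9 genes was past 1.5-fold under scaling to summed counts, scaling to the upper quartile, a minimum mean of 100, which leaves out *Bace2*, no minimum, or a fold of 2. At a lower limit of 0.32 on the log2 scale 2 were, *Aph1b* and *Bace2*, both higher in the EC, where 14.4% of all genes were higher and 11.1% lower by that much. With no scaling between the tables all 9 were past 1.5-fold, as were 88.3% of all genes. The median log2 difference of 0.11 became 0.14 with summed counts, 0.13 with the upper quartile, 1.005 with no scaling, 0.074 with a minimum of 100 and 0.084 with no minimum. The near-zero differences of *App* and *Ncstn* took either sign, *App* from −0.04 to 0.02 and *Ncstn* from −0.03 to 0.03 over the scaled settings. In a check of signs chosen after seeing the data, *Apba1* took the other sign with summed counts or the upper quartile, as did the endothelial marker *Pecam1*, and *Gga1* did with summed counts. Of the 41 other genes, 2 were past 1.5-fold with summed counts or a minimum of 100, *Sez6* and *Cdh2*, where the main count was 1. Of all genes, 7.17% were higher in the EC and 5.01% lower by that much with summed counts. With a minimum of 100 these shares were 4.03% and 4.32%. Past the lower limit were 7 of the 41, beside the 14.4% and 11.1% of all genes given above. Past 2-fold were 0 of the 41, where 2.66% of all genes were higher and 2.12% lower. In each region, the rank of 5 of the 9 genes changed when levels were divided by the longest transcript, and of 6 with coding length or no length. With coding length *Aph1b* and *Adam10* changed places between the regions. *App* stayed highest and *Bace2* lowest in all of these. No paired analysis was possible because the values are means over all mice of a region, although the regions share their animals. What was missing throughout is the spread between mice, so small differences cannot be told from error.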
